A study of Arabidopsis thaliana with 12 samples.

Results

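The gte4 single mutant of Arabidopsis thaliana was compared with wild type (WT) across the transcriptome of whole seedlings. The comparison rested on 6 of the 12 libraries of the series, 3 labelled gte4 and 3 labelled WT, and on the 22315 of 32548 genes whose mean normalized count over all 12 libraries was at least 1. The gte4 seedlings carry a mutation in GTE4 alone. The labels give no allele, insertion site or background accession, so the kind of mutation is not known from them. A further 3 libraries, from a line labelled eml1 eml2, served for a direct comparison of gte4 with another mutant, and the last 3, from the triple mutant gte4 eml1 eml2, entered the fit only through the shared estimate of spread. All plants were 20 days old, with 12 days on Murashige and Skoog plates followed by soil, at 22 °C with 16 h of light and 8 h of darkness, and none was treated. Libraries of total RNA were sequenced as pairs of 150-base reads. The labels do not say whether the 3 libraries of a genotype came from separate plants, pools or growth runs, so the spread between them may be partly technical.

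GTE4 encodes a protein of the bromodomain and extra-terminal (BET) family. A bromodomain is a pocket that binds acetylated lysine, chiefly on the tails of histones, and BET proteins link acetylated chromatin to transcription. In plants the acetyl groups on histone H4 and on the variant H2A.Z are laid down in part by NuA4, an acetyltransferase complex that shares subunits with SWR1, the complex that exchanges H2A for H2A.Z. The study's title joins GTE4 to the EMSY-like (EML) proteins, which read a methyl mark on histone H3 through their Agenet-like domain, and the comparison asks which transcripts depend on GTE4 by itself.

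The deposited values are read counts that the authors had normalized. They summed to between 32257673 and 34322625 per library in the gte4 and WT groups. Pearson's r of the log2 values across genes was 0.986 to 0.989 among the gte4 libraries, 0.986 to 0.989 among the WT libraries and 0.978 to 0.982 between a gte4 and a WT library. Genes are not independent replicates, so these coefficients only describe how alike the libraries were. The number of genes of the table at the deposited floor was 8507, 8507 and 9820 in gte4, against 9869, 10291 and 10140 in WT, and its part in the changes of weak genes was not tested. Zeros need care. AMT1;1, the main ammonium transporter, was listed at 0 in all 6 libraries, and PGLP1, an enzyme of photorespiration, reached at most 2.1 in gte4 and 0.970 in WT. GUN4, an activator of chlorophyll synthesis, reached 1.06 in gte4 and 0.970 in WT. Green tissue is known to use these genes, so a listed 0 is not taken here as absence of the transcript. Whole-plant RNA also cannot tell fewer cells of a type from less RNA per cell.

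GTE4 transcript was nearly lost in the mutant. GTE4 (AT1G06230) had 64.7, 99.2 and 61.0 normalized counts in gte4 seedlings, against 1753, 1618 and 1737 in WT seedlings. Every gte4 library lay far below every WT library, and the residue in gte4 was not 0. The change was large in the fit (log2 change -4.52, SE 0.14, adjusted p = 1.74e-10), and it lay between -4.74 and -4.39 when any single gte4 or WT library was left out. Genes beside GTE4 on chromosome 1 were called about as often as genes in general (25.9%). Among the 40 tested genes nearest to it, 20 on each side, 4 were higher and 6 were lower in gte4, and their median log2 change was 0.05.

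**Figure D1:**
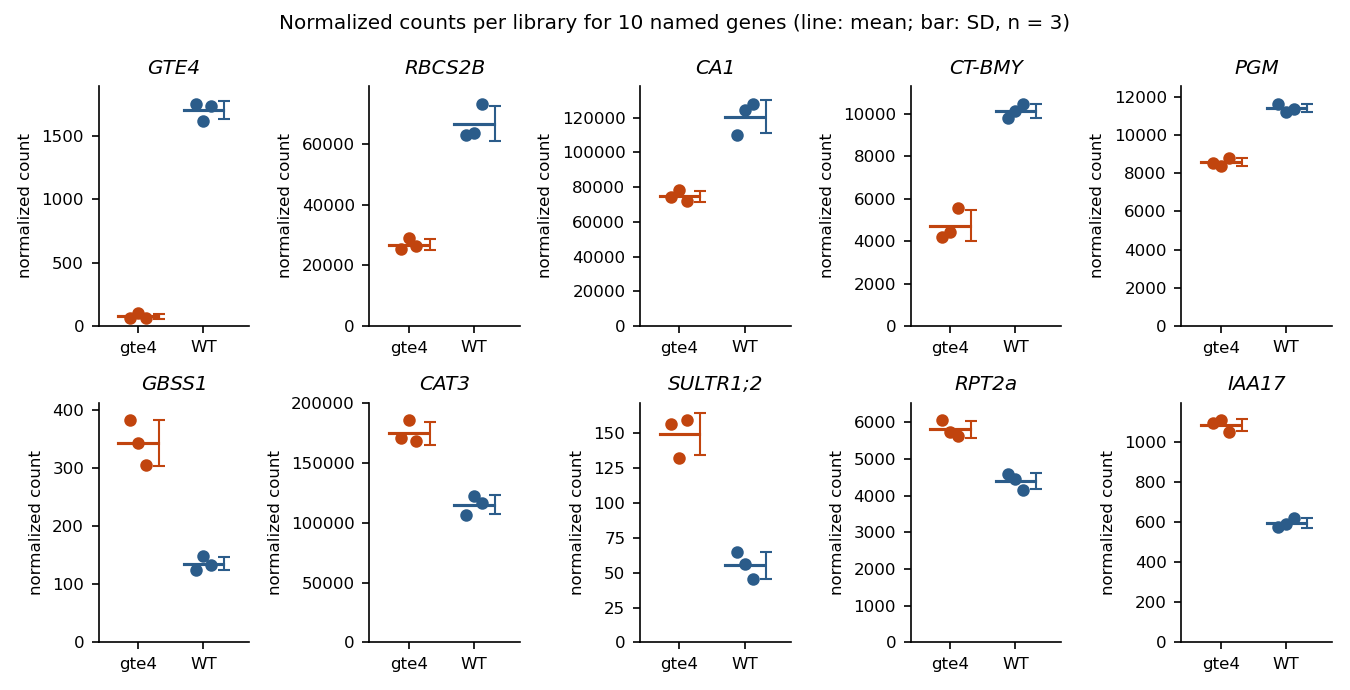
Normalized counts of 10 named genes in each library, with gte4 on the left and WT on the right of each panel. Points are libraries, the line is the mean and the bar the SD (n = 3); each vertical axis starts at 0. GTE4 lies between 61.0 and 99.2 in gte4 and between 1618 and 1753 in WT. No panel shows overlap between the groups, which the choice of the genes other than GTE4 required.

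Many genes differed, mostly by small amounts, with a median absolute log2 change of 0.39 among those called. In limma, with a threshold of 0.05 on the Benjamini-Hochberg adjusted p, 5780 of 22315 genes (25.9%) were called, of which 2693 (12.1%) were higher and 3087 (13.8%) lower in gte4. Only 735 of the called genes changed by at least 1 on the log2 scale, and in that group the higher ones were the majority, with 479 higher and 256 lower. The values of the 3 gte4 and 3 WT libraries did not overlap for 8740 genes (39.2%). A stricter set of 3272 genes (14.7%), with 1516 higher and 1756 lower, was called without overlap between groups and in the same direction in each of the 6 fits that left out 1 gte4 or WT library. Genes described as kept in all 6 fits belong to this set. Genes named from it lack overlap between gte4 and WT by that choice, so their separation is not a further result. The median log2 change over all 22315 genes was -0.0046.

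Genes with many exons were more often lower in gte4. Of 4150 genes with 1 exon, 9.73% were higher and 5.23% lower, whereas of 3191 genes with over 10 exons, 9.71% were higher and 24.9% lower. The classes between lay in order, with 7.95% lower among genes of 2 exons, 12.4% among those of 3 to 5 and 19.5% among those of 6 to 10. Exon number rises with transcript length and with level, and the median normalized count was 65.5 for genes of 1 exon and 855 for those with over 10. Within the middle of 5 equal classes of exon length, 1503 to 1917 bases, the share lower in gte4 still went up across the same classes, as 6.20%, 10.2%, 12.5%, 19.7% and 28.0%. With the length trend removed the shares lower in gte4 were 4.96% for 1 exon and 20.4% for over 10, but the share higher for over 10 exons became 15.7%. What level contributes to this pattern was not tested.

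Level and direction also went together. In the highest of 5 equal classes of level, with a mean normalized count above 1386, 22.7% of genes were higher and 13.8% lower in gte4. Under library-total scaling that lean was not seen, with 17.4% higher and 17.6% lower. In the middle class by level the order was the other way, with 9.05% higher and 20.9% lower. Changes of at least 1 on the log2 scale were rare among abundant transcripts, with 4 higher and 7 lower in that class, against 249 higher and 108 lower in the lowest class, where the mean was below 26.0. Shares were alike across chromosomes: the share of tested genes higher in gte4 lay between 11.5% and 13.0%, and the share lower between 13.3% and 14.2%, over all 5 nuclear chromosomes.

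**Figure D2:**
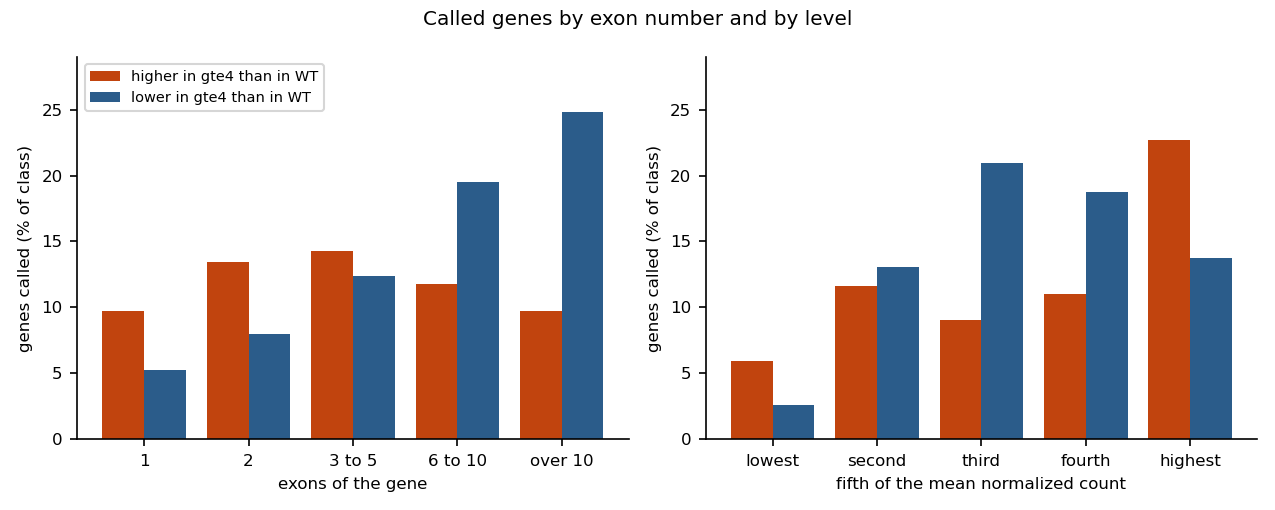
Share of tested genes called higher or lower in gte4 than in WT, by the number of exons of the gene and by 5 equal classes of mean normalized count over 12 libraries. The share lower goes up from 5.23% for genes of 1 exon to 24.9% for genes of over 10 exons, and the highest class by level is the one with the largest share higher, 22.7%.

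Genes of carbon fixation were lower in gte4. The Calvin cycle builds sugar from carbon dioxide in the chloroplast, and 8 of its 11 listed genes fell while none rose (12.1% higher and 13.8% lower over all tested genes), with a median log2 change of -0.18. Their summed level was 623749, 635074 and 626314 in gte4, against 660598, 749826 and 730129 in WT, so the groups did not overlap, although WT replicate 1 lay well below the other WT libraries. The small regulatory protein CP12-2 (AT3G62410) moved most, with 8769, 9647 and 9253 normalized counts in gte4 seedlings, against 13987, 14928 and 15279.8 in WT seedlings (log2 change -0.68, SE 0.06, adjusted p = 2.02e-06). Values given as mean ± SD have n = 3 libraries in each genotype. GAPA, the A subunit of the cycle's glyceraldehyde-3-phosphate dehydrogenase, had 71820.2 ± 1946 normalized counts in gte4 and 87531 ± 5829.8 in WT. HCEF1, the chloroplast fructose-bisphosphatase, fell by 0.27 and SBPASE, the sedoheptulose-bisphosphatase, by 0.25 on the log2 scale. Of the 8 calls, 5 were kept in all 6 fits, and the count was 5 without WT replicate 2 and 5 without gte4 replicate 2.

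The largest falls in normalized count, on a scale that is not per length, included carbonic anhydrases and Rubisco. CA1 (AT3G01500), a chloroplast carbonic anhydrase, had 74333, 78156 and 71771 normalized counts in gte4 seedlings, against 109793, 124257 and 128042 in WT seedlings. CA2 (AT5G14740), a related carbonic anhydrase, had 22326, 23325 and 20525 normalized counts in gte4 seedlings, against 34978, 37109 and 37363 in WT seedlings. RBCS2B (AT5G38420), a small subunit of Rubisco, had 25367, 28826 and 26187 normalized counts in gte4 seedlings, against 62960.4, 63717 and 73192 in WT seedlings. The log2 changes of these 3 genes were -0.69, -0.73 and -1.31 in that order. RBCS2B lies beside near-identical Rubisco small subunit genes, and how reads were shared among such copies is not given in the sources used here. The 10 largest falls also held GAPA and GLDP1, described with its pathway, and GRP7, a clock-controlled RNA-binding protein (139627 ± 1145 normalized counts in gte4 and 174447 ± 10649 in WT), DRT112, a plastocyanin (120119 ± 5916 normalized counts in gte4 and 143436 ± 6251 in WT), THI1, an enzyme of thiamine synthesis (148508 ± 3463 normalized counts in gte4 and 170938 ± 7788 in WT), GER3, a germin-like protein (51061 ± 1399.9 normalized counts in gte4 and 67393 ± 2199 in WT), and FNR2, a ferredoxin-NADP reductase (46727 ± 1269 normalized counts in gte4 and 59345 ± 2122 in WT).

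Photorespiration recycles the product that Rubisco makes from oxygen, and 5 of 9 tested genes of this pathway fell while 1 rose, against 13.8% lower and 12.1% higher over all tested genes, with a median log2 change of -0.23. All 6 calls were kept in the 6 fits. GLDP1, the P-protein of glycine decarboxylase (AT4G33010), had 50394, 51320.2 and 55746 normalized counts in gte4 seedlings, against 65120.4, 74424 and 75219.9 in WT seedlings (log2 change -0.45, SE 0.06, adjusted p = 3.01e-05). GLDT, the T-protein of the same enzyme, fell by 0.25 and HPR, the peroxisomal hydroxypyruvate reductase, by 0.32 on the log2 scale. The member that rose was CAT2, a catalase that removes the hydrogen peroxide of photorespiration, with 8174, 7895 and 7612 normalized counts in gte4 seedlings, against 5347, 6375 and 5813 in WT seedlings (log2 change 0.44, SE 0.10, adjusted p = 0.00763).

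Starch genes moved in both directions, with 11 of 23 lower and 3 higher, against 13.8% lower and 12.1% higher over all tested genes, and a median log2 change of -0.13. The largest change was the rise of GBSS1 (AT1G32900), the granule-bound synthase that makes amylose, with 382, 342 and 305 normalized counts in gte4 seedlings, against 125, 148 and 134 in WT seedlings (log2 change 1.33, SE 0.11, adjusted p = 8.33e-07). CT-BMY (AT4G17090), the chloroplast beta-amylase also known as BAM3, went the other way, with 4208, 4455 and 5546 normalized counts in gte4 seedlings, against 9798, 10143 and 10482 in WT seedlings (log2 change -1.11, SE 0.10, adjusted p = 1.06e-05), and its exons overlap another gene over 25.2% of their length. PGM, the plastid phosphoglucomutase at the entry to starch synthesis, had 8578 ± 219 normalized counts in gte4 and 11413 ± 208 in WT (log2 change -0.41, SE 0.04, adjusted p = 3.36e-06). SBE2.1 (AT2G36390), a starch branching enzyme, had 4563, 4739 and 5309 normalized counts in gte4 seedlings, against 6869, 6942 and 7209.6 in WT seedlings (log2 change -0.53, SE 0.05, adjusted p = 4.84e-06). Of the 11 falls 9 were kept in all 6 fits, but of the 3 rises only GBSS1 was, the other 2 (SS2 and APL1) being lost without WT replicates 1 or 3 or gte4 replicates 1 or 3. The sum over the list was 157445, 151504 and 167963 in gte4, against 189779.8, 182058 and 182832 in WT.

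A promoter motif was more frequent among starch genes than among all genes. The G-box CACGTG, a core bound by bZIP and bHLH factors and the same on both strands, occurred in the 250 bases before the annotated start of 7 of 23 starch genes (30.4%) and in 7.11% of all tested genes. A raised share was not particular to starch, with 2 of 11 Calvin cycle genes (18.2%) and 2 of 9 photorespiration genes (22.2%). Among all genes kept in the 6 fits, the G-box occurred in 7.46% of those higher and in 8.37% of those lower in gte4. The starch genes with the core were SBE2.1, DPE1 and PHS2, kept in all 6 fits, and SS1, SS3, BAM9 and PHS1, which were not. The G-box was also not the only motif with a raised share among starch genes. The evening element AAAATATCT occurred in 3 of 23 starch genes (13.0%) and in 2.46% of all tested genes. The promoter of SBE2.1 is shown because it belongs to the starch gene with the second largest fall and holds the core, in capitals, at the middle of the window. It lies at chr2:15263961-15264210 on the plus strand of TAIR10.1 in the RefSeq annotation.
SBE2.1 promoter: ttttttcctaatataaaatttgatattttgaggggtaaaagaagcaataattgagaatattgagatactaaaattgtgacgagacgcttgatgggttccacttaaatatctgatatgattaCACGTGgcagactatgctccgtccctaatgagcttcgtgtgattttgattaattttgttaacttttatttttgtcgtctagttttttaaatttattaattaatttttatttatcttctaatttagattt
Neither GBSS1 nor CT-BMY holds the core in this window. The match is a description of the letters and not evidence of a bound factor.

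**Figure D3:**
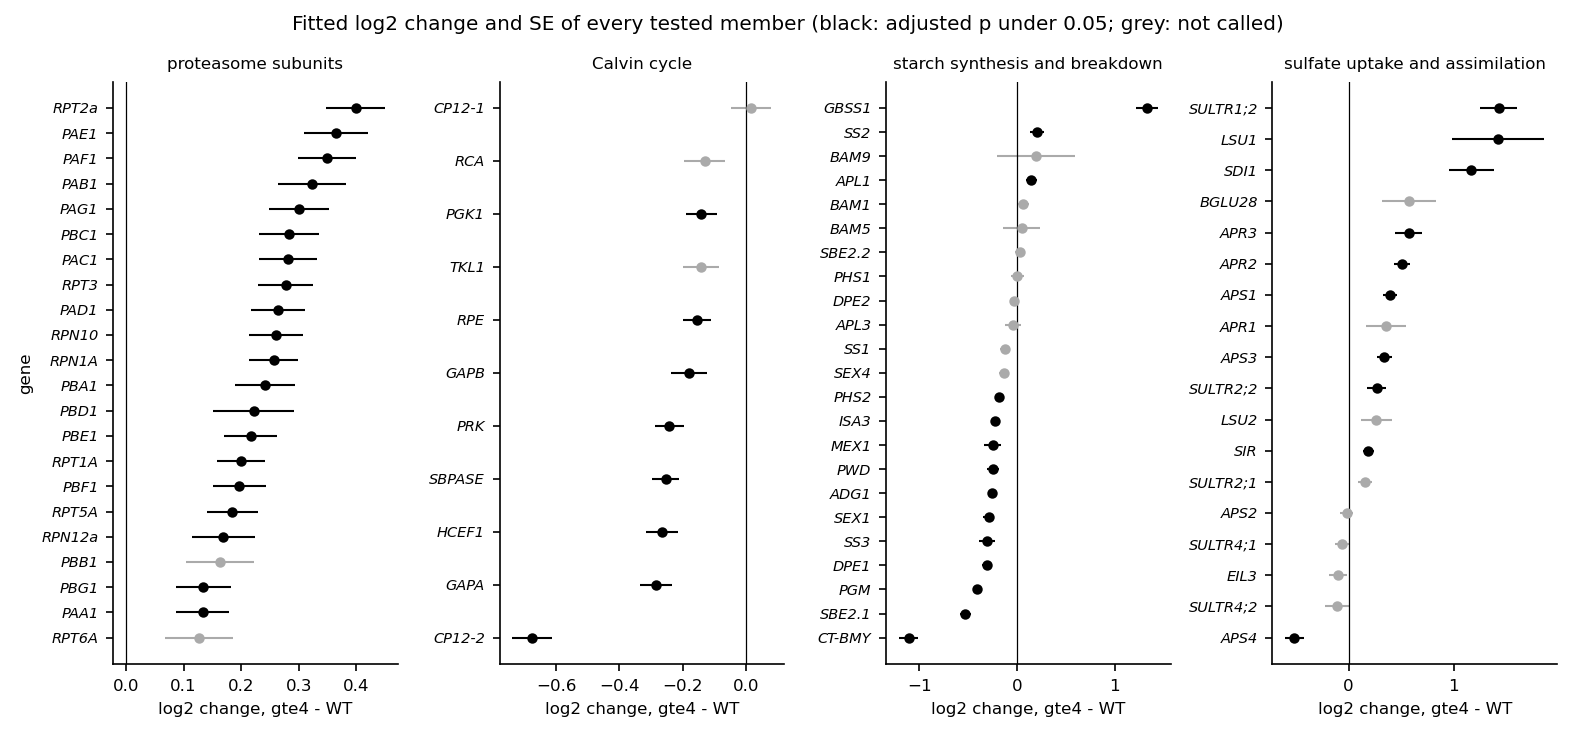
Fitted log2 change (gte4 minus WT) with its SE for every tested gene of 4 lists. Black points passed the threshold and grey points were not; all 22 proteasome genes lie to the right of 0, 10 of 11 Calvin cycle genes lie to the left, and the other lists hold members on both sides.

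Proteasome genes were higher in gte4. The proteasome is the protease that degrades proteins tagged with ubiquitin, built from a core of alpha and beta subunits and a regulatory cap of ATPases (RPT) and non-ATPase subunits (RPN). Of 22 listed genes 20 rose and none fell (12.1% and 13.8% over all tested genes), the values of all 22 did not overlap between groups (39.2% of all genes tested did not), and the median log2 change was 0.25. The summed level was 76441, 76397 and 74334 in gte4, against 62743, 64894 and 63902 in WT. RPT2a (AT4G29040), an ATPase of the cap, had 6058, 5732 and 5635 normalized counts in gte4 seedlings, against 4606, 4444 and 4169.7 in WT seedlings (log2 change 0.40, SE 0.05, adjusted p = 3.79e-05). PAE1 (AT1G53850), an alpha subunit of the core, had 1869, 1816 and 1826 normalized counts in gte4 seedlings, against 1425, 1412 and 1442 in WT seedlings (log2 change 0.36, SE 0.06, adjusted p = 2.03e-04). The alpha subunits PAF1 and PAB1 rose by 0.35 and 0.32. The remaining members lay close together, at 0.13 to 0.30, and the genes not called were PBB1 (0.16) and RPT6A (0.13). Of the 20 calls 16 were kept in all 6 fits.

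A different motif was frequent in proteasome promoters. The site II element, spelled TGGGCC or TGGGCT and read on both strands, occurred in the 250 bases before the start of 12 of 22 proteasome genes (54.5%) and in 21.3% of all tested genes. The windows of RPT2a and PAE1, the members with the largest rises, are shown because both hold it, in capitals, on either strand. RPT2a lies downstream of chr4:14312033-14312282 on the plus strand and PAE1 downstream of chr1:20106078-20106327 on the minus strand of TAIR10.1 in the RefSeq annotation, and both sequences are written toward the gene.
RPT2a promoter: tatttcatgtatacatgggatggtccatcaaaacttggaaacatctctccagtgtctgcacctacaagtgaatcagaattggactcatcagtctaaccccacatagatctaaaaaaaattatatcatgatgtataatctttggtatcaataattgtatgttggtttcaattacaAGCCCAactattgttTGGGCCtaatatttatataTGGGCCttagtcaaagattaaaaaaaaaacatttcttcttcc
PAE1 promoter: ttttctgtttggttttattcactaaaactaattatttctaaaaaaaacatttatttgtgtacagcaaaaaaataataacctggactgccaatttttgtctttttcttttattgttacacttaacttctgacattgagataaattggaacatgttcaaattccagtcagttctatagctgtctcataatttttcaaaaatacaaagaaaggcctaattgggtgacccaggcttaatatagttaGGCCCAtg
RPT2a holds 3 matches and PAE1 holds 1, close to the start. The windows of PAF1 and PAB1 hold none, although these genes rose by similar amounts. Of the genes not called, PBB1 holds 3 matches and RPT6A none. Among all genes kept in the 6 fits, the element occurred in 23.0% of those higher and in 19.9% of those lower in gte4. Among those that changed by at least 1 on the log2 scale, the element was in 11.5% of the higher and 21.5% of the lower genes. It also occurred in 7 of 23 starch genes (30.4%). The other motifs searched, on both strands, were TATAAA (40.9% of proteasome promoters and 45.9% of all), the evening element AAAATATCT, the CCA1 site AAAAATCT, the DRE core (ACCGAC or the form GCCGAC), the telo-box AAACCCTA, the W-box (TTGACC or the form TTGACT) and the CT repeat CTCTTCTT.

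Genes of ribosome assembly and translation rose by amounts of the same order. Of 17 genes of the nucleolus and of translation factors 10 rose and 1 fell, against 12.1% higher and 13.8% lower over all tested genes, with a median log2 change of 0.24. NUC-L1, a nucleolin that acts in ribosomal RNA transcription and processing (AT1G48920), had 21136, 21433 and 20791 normalized counts in gte4 seedlings, against 15771, 18023 and 16379.6 in WT seedlings (log2 change 0.34, SE 0.05, adjusted p = 1.29e-04). FIB1, the fibrillarin that methylates ribosomal RNA, had 5912 ± 262 normalized counts in gte4 and 4732 ± 243 in WT, and NAP57, the pseudouridine synthase of the same particles, had 5054 ± 123 normalized counts in gte4 and 4191 ± 156 in WT. AT5G60390, which encodes translation elongation factor EF-1 alpha, had 83455 ± 3113 normalized counts in gte4 and 67899 ± 7051 in WT. It belongs to a family of near-identical genes, so the split of its reads is uncertain. The single fall was TOR (-0.21), the growth-regulating kinase, which was not called without WT replicate 3 or gte4 replicates 1 or 2. Of the 10 rises 6 were kept in all 6 fits.

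Chaperones of the endoplasmic reticulum showed a smaller share of rises, with 5 of 13 higher and none lower (median log2 change 0.17). Over all tested genes 12.1% were higher and 13.8% lower. The calreticulin CRT1b had 4837 ± 125 normalized counts in gte4 and 3891 ± 92.3 in WT. Its relative CRT1a had 6944 ± 204 normalized counts in gte4 and 5893 ± 51.5 in WT. PDIL1-1, a protein disulfide isomerase, had 4911 ± 244 normalized counts in gte4 and 4147 ± 125 in WT. The count of rises was 3 without WT replicate 2 or gte4 replicates 1 or 2, and 8 with a replicate block in the 2 genotypes.

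Genes of sulfate uptake and assimilation rose more often than they fell. Plants take up sulfate through root transporters and activate it with ATP sulfurylase, which the APS genes encode. The activated sulfate is then reduced by an enzyme that the APR genes encode. Of 18 tested genes 9 rose and 1 fell, against 12.1% higher and 13.8% lower over all tested genes, with a median log2 change of 0.30, and the transporter SULTR1;1 was listed at 0. SULTR1;2 (AT1G78000), a high-affinity sulfate transporter of the root, had 157, 132 and 159 normalized counts in gte4 seedlings, against 64.9, 56.0 and 45.2 in WT seedlings (log2 change 1.43, SE 0.18, adjusted p = 3.06e-05). SDI1, a protein induced by sulfur deficiency (AT5G48850), had 46.3, 42.4 and 57.9 normalized counts in gte4 seedlings, against 22.3, 20.3 and 20.5 in WT seedlings (log2 change 1.17, SE 0.21, adjusted p = 8.60e-04). APR3 had 1318 ± 165 normalized counts in gte4 and 883 ± 62.1 in WT. APS4 was the member that fell, with 1401 ± 56.7 normalized counts in gte4 and 2002 ± 61.3 in WT (log2 change -0.51, SE 0.09, adjusted p = 4.93e-04), whereas the sister genes APS1 and APS3 rose by 0.39 and 0.34. For all 4 named genes the groups did not overlap, which their selection required. LSU1, another gene induced by low sulfur, rose by 1.42 (SE 0.44, adjusted p = 0.0247) but was not kept in all 6 fits.

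Of the 10 largest rises in normalized count, on a scale that is not per length, 7 were in antenna proteins. CAT3 (AT1G20620), a catalase, had the largest rise on this scale, with 170385, 185496 and 167810.5 normalized counts in gte4 seedlings, against 106432, 122520.0 and 116513 in WT seedlings (log2 change 0.60, SE 0.06, adjusted p = 4.68e-06). LHCB2.1, an antenna gene of photosystem II, had 88295 ± 6305 normalized counts in gte4 and 48141 ± 4179.8 in WT. Its near copy LHCB2.2 had 71666 ± 3622 normalized counts in gte4 and 43867 ± 3663 in WT. LHCA4, an antenna protein of photosystem I, had 260271 ± 13789 normalized counts in gte4 and 207124 ± 17583 in WT. LHCB3 and LHCB4.2, further antenna proteins of photosystem II, rose by 0.32 and 0.41, and CAB2 and CAB3 by 0.34 and 0.30. LHCB2.1 with LHCB2.2, and CAB2 with CAB3, are near-identical copies, so their split is uncertain. The set was completed by ATMS1, a methionine synthase (0.28), and TIP2, an aquaporin of the vacuole membrane (0.36).

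Of 30 genes for other photosystem and electron transport subunits, 5 rose and 2 fell, against 12.1% higher and 13.8% lower over all tested genes (median 0.08). The share called, 23.3%, was below the 25.9% of all tested genes. PSAD-2 rose by 0.39 and PSBQ-2 by 0.22, subunits of photosystem I and II, and the falls were DRT112 and FNR2. The count of rises was 2 to 3 without WT replicates 1 or 3 or gte4 replicates 1 or 2, and 11 with a replicate block in the 2 genotypes. Chlorophyll synthesis had 7 of 18 higher and 2 lower (median 0.10). HEMA1, which makes glutamyl-tRNA reductase at the start of the pathway (AT1G58290), had 13777, 12835 and 14054 normalized counts in gte4 seedlings, against 9464, 9838 and 9373 in WT seedlings (log2 change 0.50, SE 0.05, adjusted p = 7.49e-06). CAO, the oxygenase that makes chlorophyll b (AT1G44446), had 4473, 4456 and 4545 normalized counts in gte4 seedlings, against 3210.5, 3157 and 3110.0 in WT seedlings (log2 change 0.51, SE 0.05, adjusted p = 2.59e-06). PORA, a light-dependent reductase active in young seedlings, had 524 ± 60.4 normalized counts in gte4 and 896 ± 80.9 in WT, and GLK1, a transcription factor of chloroplast development, had 5258 ± 619 normalized counts in gte4 and 7233 ± 460.5 in WT. HEMA1 and CAO were higher and PORA and GLK1 lower in every gte4 library than in any WT library, a separation that their selection required.

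Light signalling genes had 7 of 22 higher and 1 lower (median 0.05), against 12.1% higher and 13.8% lower over all tested genes. The count of rises was 4 without WT replicate 2. With a replicate block in the 2 genotypes 2 fell. PIF4 (AT2G43010), a growth-promoting factor controlled by phytochrome, had 4493, 4518 and 4618 normalized counts in gte4 seedlings, against 3096, 3199 and 3334 in WT seedlings (log2 change 0.50, SE 0.05, adjusted p = 7.29e-06). Its relative PIF7 had 653 ± 46.1 normalized counts in gte4 and 477 ± 39.7 in WT, and BBX22, a B-box regulator, had 1906 ± 204 normalized counts in gte4 and 1254 ± 46.1 in WT. ELIP1, an early light-induced protein, was low in both groups, with 41.7, 44.9 and 15.05 normalized counts in gte4 seedlings, against 10.9, 9.65 and 8.87 in WT seedlings, and gte4 replicate 3 lay closest to WT.

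Enzymes of oxidant removal were called about as often as genes in general, at 28.6% against 25.9%. Of 14 superoxide dismutases, catalases and peroxidases 3 rose and 1 fell (median 0.09), against 12.1% higher and 13.8% lower over all tested genes, and the catalases accounted for 3 of these 4 calls. CAT1 fell, with 2427 ± 140.2 normalized counts in gte4 and 3295 ± 135 in WT, while CAT2 and CAT3 rose. The rises numbered 5 without gte4 replicate 3 and the falls 3 without WT replicate 1 and 2 with a replicate block in the 2 genotypes.

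Primary wall genes rose. Cellulose of growing walls is made by a complex of CESA1, CESA3 and CESA6-type synthases with the endoglucanase KOR1. Of 8 listed genes 7 rose (median 0.19), against 12.1% higher and 13.8% lower over all tested genes. CESA1 had 24037 ± 247 normalized counts in gte4 and 20271 ± 1050.0 in WT. CESA3 had 23252 ± 518 normalized counts in gte4 and 20216 ± 247 in WT. CESA6 had 14249 ± 659 normalized counts in gte4 and 11852 ± 587 in WT, and KOR1 had 14649 ± 319 normalized counts in gte4 and 12194 ± 488 in WT. These 4 were kept in all 6 fits, and the count of rises was 4 without WT replicate 2 or gte4 replicates 2 or 3 and under library-total scaling. Monolignol synthesis, which supplies lignin, had 6 of 14 higher and none lower (median 0.20). PAL2 (AT3G53260), phenylalanine ammonia-lyase at its entry, had 2538, 2476 and 2436 normalized counts in gte4 seedlings, against 1566, 1871 and 1680.4 in WT seedlings (log2 change 0.55, SE 0.08, adjusted p = 1.71e-04). PAL1 and the methyltransferase OMT1 rose by 0.36 and 0.44. CCR1, cinnamoyl-CoA reductase, rose by 0.52, but 77.2% of its exon length is shared with another gene. The genes of xylem and secondary wall had 1 of 16 higher and 1 lower, FRA8 (0.89) and the xylem peptidase XCP1 (-0.38), and 3 rose without WT replicate 1 and 2 with a replicate block in the 2 genotypes. Of 21 expansins and xyloglucan endotransglucosylases 3 rose and none fell, with EXPA5 at 3558 ± 374 normalized counts in gte4 and 2434 ± 176 in WT. That count was 1 without WT replicate 1 or gte4 replicate 2, and 8 higher and 3 lower with a replicate block in the 2 genotypes. The xylem and expansin lists had 12.5% and 14.3% of genes called, below the 25.9% of all tested genes.

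Several genes of the NuA4 and SWR1 complexes were lower. Of 21 members 11 fell and none rose (median -0.23), against 13.8% lower over all tested genes, and 6 falls were kept in all 6 fits. SWC2, the SWR1 subunit that recognises histone variants (AT2G36740), had 174, 194 and 170.1 normalized counts in gte4 seedlings, against 286, 265 and 249 in WT seedlings (log2 change -0.57, SE 0.12, adjusted p = 0.00239). ING1, a finger protein that reads methylated histone H3, had 296 ± 19.7 normalized counts in gte4 and 401 ± 22.7 in WT, and EAF1B, the scaffold of NuA4, had 378 ± 35.7 normalized counts in gte4 and 483 ± 32.5 in WT. YAF9b, a YEATS-domain subunit, was low, with 16.1, 11.5 and 14.7 normalized counts in gte4 seedlings, against 49.3, 52.2 and 40.8 in WT seedlings (log2 change -1.69, SE 0.38, adjusted p = 0.00402), and its paralog YAF9a did not pass the test (0.03). The changes were modest and the summed level overlapped between groups, at 14714, 14653 and 16089 in gte4, against 17205, 15452 and 15895 in WT. The count of falls was 7 without WT replicate 1 or gte4 replicate 2, and of the rises 1 without WT replicate 1 and 2 once the length trend was removed.

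The transcription elongation list, which holds the Paf1 complex, FACT and RNA polymerase II subunits, had 3 of 16 higher and 1 lower (median -0.0038). The share of this list called was close to the 25.9% of all tested genes, of which 12.1% were higher and 13.8% lower. Both FACT genes, which encode the histone chaperone that helps polymerase pass nucleosomes, were among the rises. SPT16 (AT4G10710) had 2966, 3045 and 3172 normalized counts in gte4 seedlings, against 2354, 2375 and 2398 in WT seedlings (log2 change 0.37, SE 0.05, adjusted p = 3.87e-05), and SSRP1 had 2147 ± 8.81 normalized counts in gte4 and 1819.6 ± 62.2 in WT. Paf1 complex genes stayed between -0.07 and 0.08 and were not called. The list gave 5 rises without WT replicate 1, and its fall, CDKC2 (-0.21), was not called without WT replicate 3 or gte4 replicate 2. Core histone genes gave 2 of 26 higher and 1 lower (median -0.01), which is 11.5% called, below the share over all tested genes. HTB2 fell, with 3294 ± 167 normalized counts in gte4 and 3874 ± 197 in WT, and the rises, HTA8 and HTA11, were both lost without WT replicates 1 or 2 or gte4 replicates 1 or 2. With a replicate block in the 2 genotypes 2 core histone genes fell.

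Hormone genes showed scattered changes. Over all tested genes 25.9% were called, 12.1% higher and 13.8% lower. The gibberellin and auxin lists had larger shares called than all tested genes, and the brassinosteroid, ethylene and cytokinin lists had smaller ones. In gibberellin synthesis and signalling 6 of 26 rose and 2 fell (median 0.23). The falls were KAO2 and KAO1, the paired ent-kaurenoic acid oxidases: KAO2 (AT2G32440) had 612, 570.0 and 524 normalized counts in gte4 seedlings, against 1009, 840.4 and 896 in WT seedlings (log2 change -0.68, SE 0.09, adjusted p = 4.80e-05) and KAO1 had 173 ± 4.06 normalized counts in gte4 and 273 ± 32.2 in WT. GID1B, a gibberellin receptor, had 113 ± 13.4 normalized counts in gte4 and 63.9 ± 7.40 in WT, and the gibberellin-responsive GASA6 had 8004 ± 1140.2 normalized counts in gte4 and 6209 ± 513 in WT. GASA6 missed the threshold with a replicate block in the 2 genotypes (adjusted p = 0.0976) and passed it with a block in all samples (adjusted p = 0.00842). The rises numbered 10 with a block in all samples and 2 or 3 without WT replicates 2 or 3 or gte4 replicates 1 or 2. Auxin genes gave 6 of 27 higher and 3 lower (median -0.11). IAA17 (AT1G04250), a repressor of auxin response, had 1096, 1108 and 1048 normalized counts in gte4 seedlings, against 574, 592 and 619.9 in WT seedlings (log2 change 0.86, SE 0.07, adjusted p = 4.94e-07). GH3.3 and DFL1, which conjugate auxin to amino acids, rose by 0.71 and 0.29, and GH3.3 had 182 ± 4.81 normalized counts in gte4 and 113 ± 27.4 in WT. The auxin rises numbered 3 without gte4 replicate 2, and the falls 1 without WT replicates 2 or 3 and 6 with a replicate block in the 2 genotypes.

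Brassinosteroid genes gave 2 of 16 higher and 1 lower (median -0.11): DWF1, an enzyme of sterol and brassinosteroid synthesis (14321 ± 417 normalized counts in gte4 and 11254 ± 821 in WT), BIN2, the kinase that restrains the response (4411 ± 124 normalized counts in gte4 and 3624 ± 90.4 in WT), and DWF5, a sterol reductase (2571 ± 49.6 normalized counts in gte4 and 3018 ± 61.0 in WT). The falls numbered 3 without WT replicate 1, 2 without WT replicate 2 or gte4 replicates 1 or 3, and 4 with a replicate block in the 2 genotypes. Ethylene genes gave 2 of 18 higher and none lower (median 0.03), and 4 rose and 1 fell with a replicate block in the 2 genotypes, with the receptor ETR2 at 227 ± 23.2 normalized counts in gte4 and 143 ± 12.8 in WT. Cytokinin genes gave 1 of 19 higher and 1 lower (median 0.12), and the cytokinin-degrading oxidase CKX4 had 515 ± 13.0 normalized counts in gte4 and 392 ± 18.0 in WT. The cytokinin rises numbered 2 without WT replicates 1 or 3 and 4 with a replicate block in the 2 genotypes, where 2 fell, and the fall, ARR16 (-0.31), was lost without WT replicates 1 or 2 or gte4 replicates 1 or 2. In the brassinosteroid, ethylene and cytokinin lists the share called was below the 25.9% of all tested genes.

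Among regulators of leaf growth 5 of 19 rose and 2 fell (median 0.19), against 12.1% higher and 13.8% lower over all tested genes, and 2 of the rises were kept in all 6 fits. GRF3 (AT2G36400), a growth-regulating factor that promotes leaf cell proliferation, had 621, 625 and 721 normalized counts in gte4 seedlings, against 357, 374 and 439 in WT seedlings (log2 change 0.75, SE 0.10, adjusted p = 4.74e-05). AN3, the coactivator of these factors (AT5G28640), had 702, 717 and 665 normalized counts in gte4 seedlings, against 456, 513 and 490.2 in WT seedlings (log2 change 0.51, SE 0.07, adjusted p = 5.42e-05). TCP4, which favours the end of proliferation, fell, with 3521 ± 123 normalized counts in gte4 and 4228 ± 341 in WT. The rises numbered 2 without gte4 replicate 1 and 3 without gte4 replicate 3, and the falls 1 without WT replicates 1 or 2 or gte4 replicates 2 or 3. Stomatal genes gave 5 of 18 higher and 2 lower (median 0.05). The receptors ERL1, ERL2 and TMM, which restrict stomatal spacing, had 191 ± 19.1 normalized counts in gte4 and 139 ± 10.2 in WT for ERL1, 564 ± 16.0 normalized counts in gte4 and 414 ± 9.77 in WT for ERL2 and 833 ± 74.4 normalized counts in gte4 and 664 ± 22.2 in WT for TMM. FAMA, the factor of guard cell identity, had 674 ± 34.8 normalized counts in gte4 and 865 ± 40.8 in WT. The rises numbered 3 without gte4 replicate 1, and the falls 1 without WT replicate 2 or gte4 replicates 1 or 2. In the leaf polarity list 1 of 11 rose, FIL, a YABBY factor, at 764 ± 21.7 normalized counts in gte4 and 554 ± 48.6 in WT (2 rose without WT replicate 3 or gte4 replicate 3), and in the shoot meristem and boundary list 1 of 12 rose, KNAT1 (0.44), a call lost without WT replicate 2 or gte4 replicate 2. With a replicate block in the 2 genotypes each of these lists had 2 rises.

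**Figure D4:**
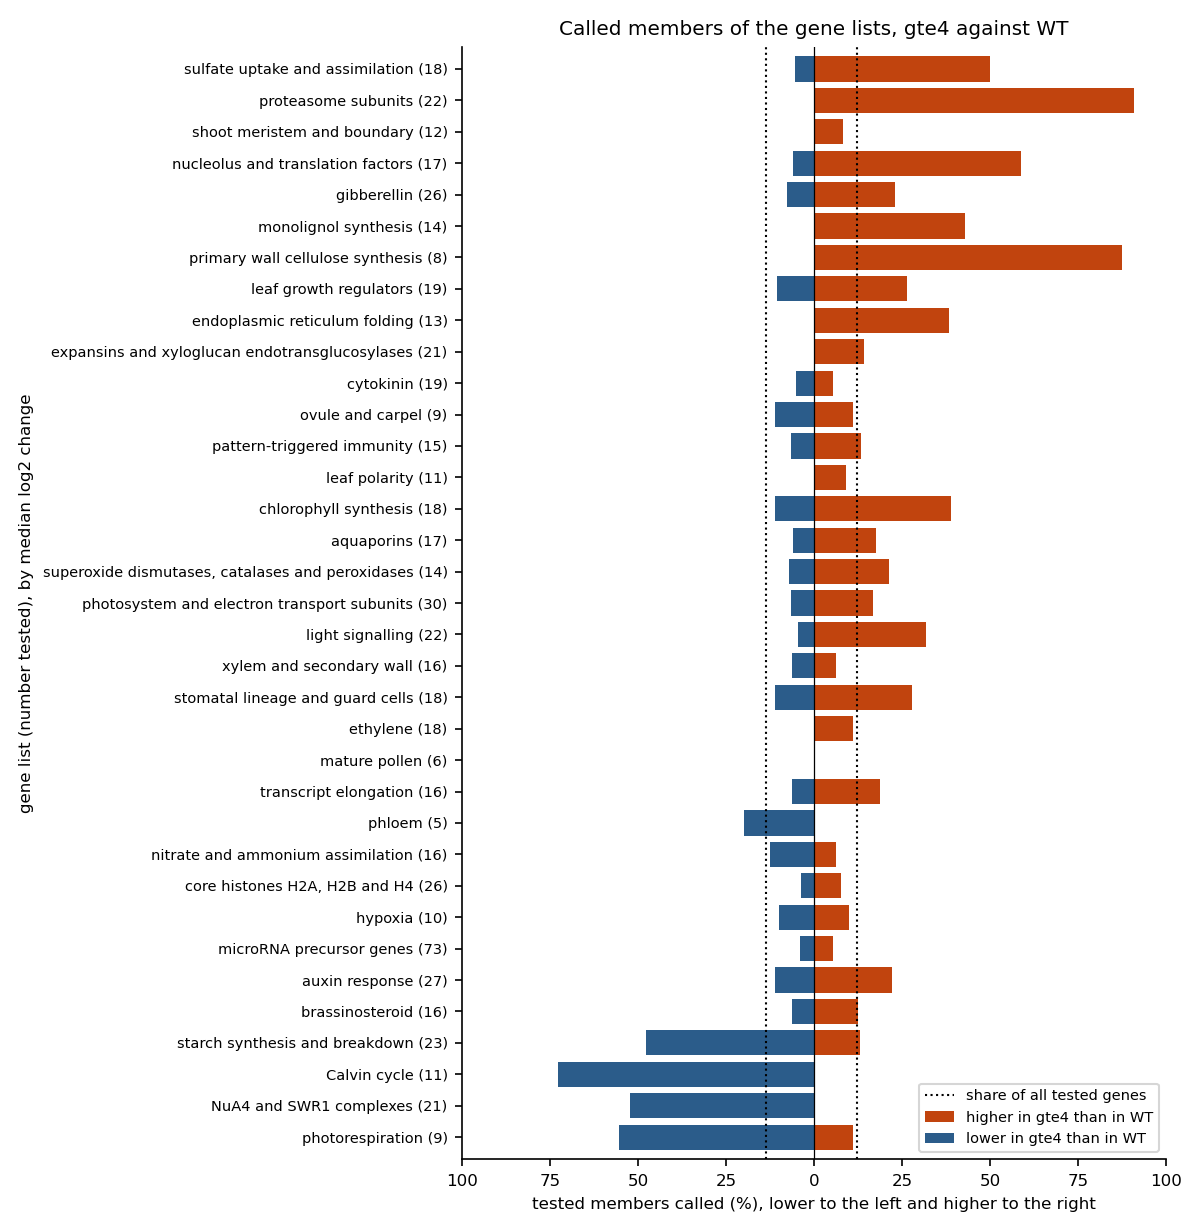
Share of tested members called higher (right) and lower (left) in gte4 than in WT, for the 35 gene lists with at least 5 tested members, sorted by median log2 change. Dotted lines mark the shares over all tested genes, 12.1% higher and 13.8% lower; proteasome and primary wall cellulose genes reach farthest to the right and Calvin cycle genes farthest to the left.

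The largest rises on the log2 scale were from low levels, and several of the genes are known from the anther. No anther list was tested. The tapetum is the anther layer that nourishes pollen and supplies its coat. EXL6 (AT1G75930), an extracellular lipase of the pollen coat, had 34.4, 36.4 and 36.6 normalized counts in gte4 seedlings, against 0, 0 and 0.919 in WT seedlings. Its neighbour ATA27, a glycosyl hydrolase of the anther, had 224, 200.4 and 190.2 normalized counts in gte4 seedlings, against 0, 14.53 and 25.7 in WT seedlings. NAC025, a NAC-domain factor (AT1G61110), had 49.1, 33.2 and 29.99 normalized counts in gte4 seedlings, against 0, 0.965 and 1.83 in WT seedlings. In these genes WT replicate 1 was at 0 and every gte4 library stood well above WT. SHT (AT2G19070), the transferase that makes spermidine conjugates of the pollen wall, had 54.9, 61.3 and 57.7 normalized counts in gte4 seedlings, against 0, 7.80 and 4.50 in WT seedlings, with exons that overlap another gene over 33.2% of their length. LTP12, a tapetal lipid transfer protein, had 148, 89.4 and 92.1 normalized counts in gte4 seedlings, against 0, 8.70 and 18.4 in WT seedlings. EXL4, another lipase of the cluster, had 146, 139 and 81.7 normalized counts in gte4 seedlings, against 0, 2.82 and 27.9 in WT seedlings. Summed over the 15 largest rises, the level was 2100.3, 1878 and 1629 in gte4, against 39.9, 97.7 and 163 in WT, and 12 of the 15 genes were below 1 in WT replicate 1, against 5 in WT replicate 2 and 3 in WT replicate 3.

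Not all of the 15 were anther genes by annotation. AT1G75945, an uncharacterized gene beside ATA27, had the largest rise, with 134, 148 and 129 normalized counts in gte4 seedlings, against 2.97, 0 and 0.86 in WT seedlings (log2 change 6.14, SE 0.35, adjusted p = 7.72e-08), and the noncoding RNA gene AT3G05945 had the highest levels of the 15, with 651, 637 and 609.6 normalized counts in gte4 seedlings, against 31.1, 30.02 and 12.9 in WT seedlings (log2 change 4.72, SE 0.26, adjusted p = 2.02e-06). AT5G16960, a dehydrogenase, and AT1G66850, a protease inhibitor or lipid-transfer protein, rose by 4.25 and 3.57. AT5G48210, a prolamin-like protein, and the uncharacterized AT1G68875 and AT1G26720 rose by 3.76, 4.20 and 3.73. With only the 2 genotypes fitted, 4 of the 15 missed the threshold: EXL4 (adjusted p = 0.0852), ATA27 (0.0915), LTP12 (0.0808) and AT1G68875 (0.0736). With a replicate block in those libraries the same 4 missed it (0.179, 0.156, 0.173 and 0.148), as did GRP19, a pollen coat protein (0.120), and TSM1, a tapetal methyltransferase (0.0576). With a block in all 12 libraries these 6 genes were called, at adjusted p from 0.00525 to 0.0211.

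Of 10 listed markers of mature pollen 6 were tested and none was called by limma, and MGH3, DUO1, ADF7 and ADF10, genes of sperm cells and late pollen, were listed at 0 in all 6 libraries, which is not taken as absence. Summed over the tested members the level was 24.5, 20.4 and 9.80 in gte4, against 16.4, 17.4 and 25.3 in WT. Ovule and carpel genes gave 1 of 9 higher and 1 lower (median 0.11): STK, the ovule identity factor (1.65, adjusted p = 0.0434), and NGA1 (-0.29), neither kept in all 6 fits and STK not called with a replicate block in the 2 genotypes, and their summed level was 659, 659 and 627 in gte4, against 711, 743 and 701 in WT. Over all tested genes 12.1% were higher and 13.8% lower. The part of the number of flower buds in the anther rises was not tested.

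Transcription factors named as such in the annotation included MADS-box genes among the rises. The annotation uses these words for 286 of the tested genes, and 27 of them were kept in all 6 fits, a smaller share than the 14.7% of all tested genes. The 6 largest rises among these 27 were all MADS-box genes. MAF5, a relative of the flowering repressor FLC (AT5G65080), had 42.2, 54.7 and 70.0 normalized counts in gte4 seedlings, against 18.4, 5.70 and 13.4 in WT seedlings (log2 change 2.17, SE 0.53, adjusted p = 0.00857). PHE1, an imprinted gene known from the endosperm, had 29.03, 25.2 and 33.1 normalized counts in gte4 seedlings, against 11.6, 8.67 and 10.7 in WT seedlings (log2 change 1.41, SE 0.23, adjusted p = 3.97e-04). AT5G55690, a related MADS-box gene, had 7.57, 10.2 and 9.16 normalized counts in gte4 seedlings, against 1.31, 0.957 and 1.80 in WT seedlings, and the floral organ factors SEP3, PI and AP3 rose by 1.24, 1.19 and 0.97. Apart from GTE4 itself the falls among the genes so named were small. Factors whose product name lacks these words are left out here. Among them are NAC025, with a large rise, and AGL94 and AT5G25470, both among the largest falls. GATA27 had 342 ± 8.52 normalized counts in gte4 and 447 ± 22.8 in WT, BZO2H1, a bZIP factor, 556 ± 37.2 normalized counts in gte4 and 725 ± 41.9 in WT, and HSFA1D, a master factor of the heat response, 338 ± 14.1 normalized counts in gte4 and 425 ± 23.2 in WT. AT1G02110, annotated as bZIP class, fell by 0.41 and AT1G76580, of the SPL family, by 0.30 on the log2 scale.

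**Figure D5:**
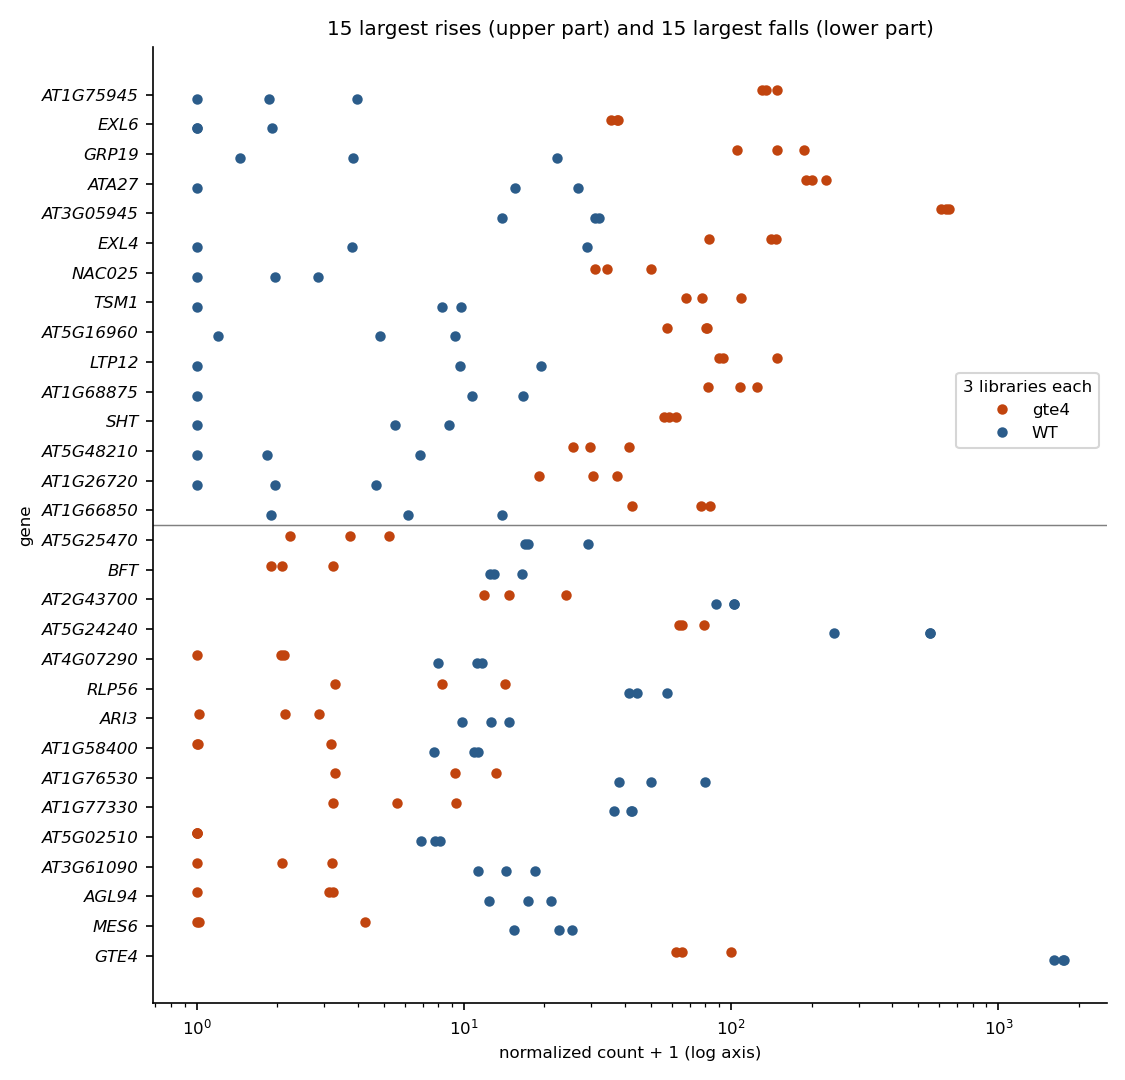
Normalized count plus 1, on a log axis, in each gte4 and WT library for the 15 largest rises (upper part) and 15 largest falls (lower part) on the log2 scale. Each point is 1 library. The groups do not overlap for any gene because the genes were chosen so. Most of the rises start from WT values near 0, while most of the falls end at gte4 values below 25.

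The largest falls after GTE4 were also in weakly expressed genes. MES6 (AT2G23550), a member of the methyl esterase family, had 0.0181, 3.26 and 0 normalized counts in gte4 seedlings, against 21.7, 14.4 and 24.3 in WT seedlings (log2 change -3.66, SE 0.59, adjusted p = 3.07e-04). AGL94 (AT1G69540), a MADS-box gene, had 2.13, 2.23 and 0 normalized counts in gte4 seedlings, against 20.1, 16.4 and 11.4 in WT seedlings (log2 change -2.94, SE 0.55, adjusted p = 0.00108). In both, each gte4 library lay below 3.5 and each WT library above 11. AT5G02510, annotated as a UDP-glucose dehydrogenase, was listed at 0 in all gte4 libraries and at 5.92, 6.76 and 7.16 in WT. AT1G77330, an oxygenase of the 2OG family, had 2.24, 4.597 and 8.37 normalized counts in gte4 seedlings, against 41.2, 41.6 and 35.6 in WT seedlings. AT1G76530, of the auxin efflux carrier family, had 2.30, 12.2 and 8.26 normalized counts in gte4 seedlings, against 78.6, 49.2 and 36.9 in WT seedlings. AT1G58400, a CC-NBS-LRR resistance protein, had 0.0121, 2.18 and 0 normalized counts in gte4 seedlings, against 10.3, 6.73 and 9.85 in WT seedlings, and RLP56, a receptor-like protein, had 2.30, 13.3 and 7.31 normalized counts in gte4 seedlings, against 43.3, 40.5 and 56.6 in WT seedlings. Both groups of values lay apart in each case, which the selection of these genes required.

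AT5G24240, a phosphatidylinositol 4-kinase-like gene, was the fall at the highest level after GTE4, with 64.6, 78.1 and 63.0 normalized counts in gte4 seedlings, against 242, 552 and 553 in WT seedlings, and WT replicate 1 stood at less than the other WT libraries. AT2G43700, a lectin receptor kinase, had 10.9, 13.8 and 23.2 normalized counts in gte4 seedlings, against 101.2, 86.9 and 101.01 in WT seedlings. BFT, a relative of the flowering repressor TFL1, had 1.09, 2.23 and 0.891 normalized counts in gte4 seedlings, against 11.9, 15.5 and 11.5 in WT seedlings, and shares 50.5% of its exon length with another gene, and the noncoding AT4G07290 (-2.63) shares 54.8%. ARI3, a ubiquitin ligase of the ARIADNE type, AT3G61090, a putative nuclease, and AT5G25470, an AP2/B3-like factor, had log2 changes of -2.73, -2.94 and -2.53.

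Root hair genes were mostly near 0 in both genotypes. Of 8 root hair genes 3 were tested, and EXPA7, EXPA18, LRX1, RSL4 and RHD6 did not exceed 0.933 in gte4 and were 0 in WT. COW1 (AT4G34580), a phosphatidylinositol transfer protein needed for root hair growth, fell, with 29.2, 32.1 and 48.0 normalized counts in gte4 seedlings, against 103, 111 and 114 in WT seedlings (log2 change -1.59, SE 0.21, adjusted p = 4.57e-05). PRP3 (-1.35) and RHD2 (0.33) did not pass the test. Phloem markers gave 1 of 5 lower, against 13.8% lower over all tested genes. It was PP2-A1, at 3700.0 ± 223 normalized counts in gte4 and 4423 ± 288 in WT. Aquaporins gave 3 of 17 higher and 1 lower (median 0.09), against 12.1% higher and 13.8% lower over all tested genes. PIP1A had 5816 ± 85.8 normalized counts in gte4 and 4831 ± 198 in WT. PIP1B had 25409.8 ± 538 normalized counts in gte4 and 21809 ± 806 in WT. With a replicate block in the 2 genotypes 6 aquaporins rose, and the fall was lost without WT replicates 2 or 3 or gte4 replicates 1 or 3.

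The remaining lists stood near or below the background, which was 12.1% higher and 13.8% lower over all tested genes. Nitrate and ammonium assimilation gave 1 of 16 higher and 2 lower (median -0.01). G6PD3 (AT1G24280), a plastid glucose-6-phosphate dehydrogenase, was its large change, with 182, 247 and 198 normalized counts in gte4 seedlings, against 466, 486 and 485 in WT seedlings (log2 change -1.21, SE 0.11, adjusted p = 1.89e-06), and ASN2, an asparagine synthetase, had 3153 ± 143 normalized counts in gte4 and 2712 ± 100.3 in WT. The falls numbered 1 without WT replicate 2 or gte4 replicate 2. Hypoxia genes gave 1 of 10 higher and 1 lower (median -0.05), with SUS1, a sucrose synthase, at 1691 ± 29.3 normalized counts in gte4 and 2401 ± 94.2 in WT; the rise was lost without WT replicate 2 or gte4 replicates 1 or 2, and 3 rose with a replicate block in the 2 genotypes. Pattern-triggered immunity gave 2 of 15 higher and 1 lower (median 0.11), with CERK1, the chitin receptor kinase, at 952 ± 22.1 normalized counts in gte4 and 1132 ± 13.6 in WT, and both rises were lost without WT replicate 2 or gte4 replicates 2 or 3, while 5 rose with a replicate block in the 2 genotypes. Of 325 microRNA precursor genes 73 were tested, 4 rose and 3 fell (median -0.10), and 2 of the rises were kept in all 6 fits. The kept rises were MIR5642a (542 ± 48.5 normalized counts in gte4 and 238 ± 40.4 in WT) and MIR863 (63.4 ± 13.6 normalized counts in gte4 and 29.4 ± 8.88 in WT), which share 24.6% and 58.7% of their exon length with another gene. The falls numbered 1 without WT replicates 1 or 2 or gte4 replicate 3 and 0 without WT replicate 3, and the rises 2 without WT replicate 3 or gte4 replicates 1 or 2.

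Strong changes were sometimes shared by neighbouring genes. Of the 735 called genes that changed by at least 1 on the log2 scale, which are 3.29% of those tested, 79 (10.7%) stood next to another such gene that moved the same way in the order of tested genes, in 37 runs of 2 or 3. Untested genes between them were passed over, so members of a run need not be adjacent on the chromosome. Of these runs 25 were higher and 12 lower in gte4. EXL6, ATA27 and AT1G75945 formed 1 run on chromosome 1. On chromosome 5 the pollen coat genes GRP14, GRP18 and GRP17 (2.88, 1.29 and 5.18) formed a run beside that of GRP19, GRP20 and AT5G07570 (4.84, 2.56 and 1.23). GRP18, GRP17 and AT5G07570 were not kept in all 6 fits, and GRP17 had 0.460, 0 and 46.4 normalized counts in WT seedlings. The receptor-like kinase genes CRK36, CRK37 and CRK38 on chromosome 4 rose by 1.01, 1.53 and 2.23, and CRK36 had 149 ± 11.4 normalized counts in gte4 and 73.5 ± 3.63 in WT. The lipid-transfer-like genes AZI1, EARLI1 and AT4G12490, also on chromosome 4, rose by 1.32, 1.72 and 1.40, and AT4G12490 was not kept in all 6 fits. CIPK20, a protein kinase gene, and DOG1, the seed dormancy gene beside it, also formed a run, in which DOG1 had 65.8 ± 2.57 normalized counts in gte4 and 20.8 ± 3.46 in WT. Runs that fell included DAR7 and DAR6 (-1.38 and -1.45), MSH5 with LpxK (-1.63 and -1.30), and the cold-responsive pairs COR15B and COR15A, in which COR15B changed by -1.77, and KIN1 and KIN2 (-1.39 and -1.03). Many runs are tandem copies, which can share reads. These runs were picked out after their values were seen.

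The direct comparison of gte4 with eml1 eml2 asks which transcripts differ between these mutants, and it shares the gte4 libraries with the comparison against WT. It called 3019 of 22315 genes (13.5%), with 1287 higher and 1732 lower in gte4. Of the 30 genes with the largest changes against WT, 6 also differed from eml1 eml2, all of them lower in gte4. AT5G24240 was also called lower with a replicate block, in the 2 genotypes (adjusted p = 1.25e-04) or in all samples (adjusted p = 0.0309), and AT2G43700 was called higher in gte4 than in eml1 eml2 without eml1 eml2 replicate 1 (log2 change 1.95, adjusted p = 0.0225). GTE4 stood at 64.7, 99.2 and 61.0 in gte4 and 2197, 2134 and 2202 in eml1 eml2 (log2 change -4.88, SE 0.14, adjusted p = 1.21e-10). MES6 stood at 0.0181, 3.26 and 0 in gte4 and 11.7, 6.60 and 6.66 in eml1 eml2 (log2 change -2.47, SE 0.59, adjusted p = 0.0129). AT4G07290 stood at 1.07, 1.12 and 0 in gte4 and 11.7, 6.59 and 7.73 in eml1 eml2 (log2 change -2.53, SE 0.54, adjusted p = 0.00745). AGL94, AT1G77330 and AT5G25470 were also lower than in eml1 eml2, but these calls and that of MES6 were lost when 1 of several libraries was left out, for example without eml1 eml2 replicate 1 (adjusted p from 0.0559 to 0.0762). None of the 15 largest rises differed from eml1 eml2 at this threshold, which does not show that they are alike. With a replicate block in the 2 genotypes, 11 of these 15 were called, all lower in gte4, among them EXL6 (adjusted p = 0.00437) and ATA27 (adjusted p = 2.06e-07), and with a block in all samples none was.

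Among genes named for other reasons, some separated the mutants. IAA17 stood at 1096, 1108 and 1048 in gte4 and 632, 677 and 692 in eml1 eml2 (log2 change 0.70, SE 0.07, adjusted p = 7.22e-05), with no overlap. CAT3 stood at 170385, 185496 and 167810.5 in gte4 and 145227, 135324 and 140970.2 in eml1 eml2 (log2 change 0.31, SE 0.06, adjusted p = 0.00513). COW1 stood at 29.2, 32.1 and 48.0 in gte4 and 76.5, 99.8 and 96.4 in eml1 eml2 (log2 change -1.32, SE 0.21, adjusted p = 0.00183). PAB1 stood at 2116, 2155 and 1901 in gte4 and 1628, 1656 and 1661 in eml1 eml2 (log2 change 0.32, SE 0.06, adjusted p = 0.00421). The number of genes called in this comparison depended on single libraries: it was 1165 without gte4 replicate 1, 877 without gte4 replicate 2 and 3723 without gte4 replicate 3, and 1485, 1567 and 2000.0 without eml1 eml2 replicates 1, 2 and 3. It was 5044 with a replicate block in the 2 genotypes, and 1530 with the length trend removed. Under library-total scaling 787 genes were higher and 2176 lower in gte4, and with the length trend removed 836 were higher and 694 lower.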

How the data were processed

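The deposited table holds 1 signal value per gene and sample, a read count normalized by the authors before they deposited it; the values are not whole numbers. Per the submitters' processing notes, bcl2fastq, HISAT2, edgeR and the build TAIR10 were used; versions, the counting program, the annotation and the strand are not given in the sources used here. Values at the deposited floor were set to 0, 1 was added, and log2 values were fitted with limma 3.58.1 in R 4.3.3, with 1 coefficient per genotype over all 12 libraries, mean-variance trend, robust moderation and Benjamini-Hochberg adjustment over 22315 genes. Every adjusted p in the text comes from limma; 3 against 3 libraries allow no permutation p below 0.1. The fit was tested on simulated data.

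Gene names, exons and promoters come from the RefSeq annotation of TAIR10.1, matched by gene ID (32548 of 32548); the table holds no coordinates. Plastid and mitochondrial genes were not analysed here. The comparison, the 36 gene lists and their members were chosen with earlier results of these data known. Named genes are GTE4, the 15 largest log2 changes each way, the 10 largest changes in mean count each way, up to 6 factors each way whose product name says transcription factor (5 besides GTE4 fell) and up to 4 members of a list, all among genes kept in the 6 fits that leave out a library; list members outside this rule, untested markers, runs of neighbours and the genes singled out against eml1 eml2 were named after their values were seen. A gene that the rule names is not reported here.

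Replicates with the same number deviated together between gte4 and WT, with correlations of 0.465, 0.262 and 0.506 over 16738 genes with a mean of at least 50, but 0.141, 0.0592 and 0.157 over all 22315 genes. Between gte4 and eml1 eml2 they were 0.533, 0.177 and 0.624 over the 16738 genes. The labels do not say what a number marks, so the numbers were not used in the fit, and values with a replicate block are given beside results they change.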

Additional observations from a re-analysis of the deposited data

How the results depend on the processing

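The number of genes called in gte4 against WT stayed within 1.5 times of 5780 under each of 11 alternative settings. It was 4746 with only the 2 genotypes fitted, 5005 with plain moderation, and 6825 and 6963 with a replicate block in the 2 genotypes and in all samples. The fits that left out a library gave 4275 to 5265. The balance of directions moved with scaling, with 2915 higher and 2837 lower under median-of-ratios scaling, 2130.0 and 3541 under library-total scaling, and 3251 and 2750.0 with the length trend removed. Median-of-ratios scaling shifted the median log2 change by 0.02 and library-total scaling by -0.04. GTE4 was called in every alternative run. For gte4 against eml1 eml2, the count of 3019 became 1491 with plain moderation, 1530.0 with the length trend removed and 5044 with a replicate block in the 2 genotypes, and leaving out a library gave 877 to 3723. Why these counts moved was not tested.

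Of the other named genes, 145 in number, 7 lost their call under some alternative and none changed direction; all 7 losses came with only the 2 genotypes fitted or with a replicate block in them. The fits without 1 gte4 or WT library could lose none of these calls, since the genes were chosen among those kept in them. The block changed no other call among the named genes. Of 72 counts of list members, 44 moved by more than 1.5 times under at least 1 alternative. Normalized values do not give the depth, so no counting interval is given, and genes with small values are the least certain.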
